A study of Mus musculus with 4 samples.

Results

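The BCL2 family genes Bcl2, Bcl2l1, Mcl1, Bcl2a1b, Bcl2a1d, Bcl2l11, Bid and Bak1 were followed across single CD8+ T cells of tumor-draining lymph nodes (TdLN). They were taken by gene symbol, 8 of the 32285 genes in the files, and all 8 were found in each of the 4 libraries and passed the filter on low counts. They were chosen for their function, with earlier results of these data known. The cells were sorted as CD8+ PD-1+ CD44+ from C57BL/6 mice carrying B16F10GP tumors, a B16F10 melanoma line that expresses a viral glycoprotein as a model antigen. One library was made per treatment, with cells of 5 mice in each told apart by hashtag antibodies. The treatments were tumor irradiation with a PD-L1 blocking antibody (RT + αPD-L1), irradiation alone (RT), the antibody alone (αPD-L1), and none (Control), with nodes of treated mice taken at day 7. Since each treatment was a single library, treatment and library cannot be told apart.

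Proteins of the BCL2 family decide whether the outer membrane of the mitochondrion is opened, the step that commits a cell to apoptosis. Pro-survival members hold the effectors BAK and BAX in check. BH3-only members, raised or activated by cytokine withdrawal, DNA damage or death receptors, bind the pro-survival members or activate the effectors directly. In CD8+ T cells, BCL2 is known as a survival factor of resting and memory cells downstream of the interleukin-7 receptor. MCL1 is needed at nearly all stages, and A1 (from the Bcl2a1 genes) and BCL-xL (from Bcl2l1) are induced upon antigen receptor stimulation. BIM, the product of Bcl2l11, is the main BH3-only protein that removes T cells after a response.

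The genes lie at separate places in the mouse genome (GRCm38, GENCODE M21 annotation), and all are protein-coding. Of the pro-survival genes, Bcl2 spans chr1:106538178-106714274 on the minus strand, Bcl2l1 chr2:152780668-152831728 on the minus strand, and Mcl1 chr3:95658788-95663176 on the plus strand. The 2 copies of the A1 gene lie on chromosome 9, Bcl2a1b at chr9:89199209-89207827 on the plus strand and Bcl2a1d at chr9:88723285-88731914 on the minus strand. Of the BH3-only genes, Bcl2l11 spans chr2:128126038-128162547 on the plus strand and Bid chr6:120891930-120916853 on the minus strand. The effector gene Bak1 spans chr17:27019810-27029009 on the minus strand.

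Bcl2a1b and Bcl2a1d are near-identical copies, which bears on how their counts can be read. Their annotated transcripts, of 817 and 863 bases, matched at 810 aligned bases and differed at 7 (99.1% identity). Within the aligned stretch a tag can be given to either copy only where it covers a differing base. A part of the longer Bcl2a1d transcript lay outside that stretch. Another copy, Bcl2a1a, matched Bcl2a1b at 98.2% and Bcl2a1d at 98.8% and held only 65 unique molecular identifiers (UMIs) in the cells compared. The sequences just before both gene starts were as alike, and are shown because the copies moved together in the data. In the lines below, read 5′ to 3′ on the strand of the gene from RefSeq sequence of GRCm38.p6, capitals mark the letters GAGGAAGT, a motif bound by ETS factors.
Bcl2a1b, chr9:89199023-89199164, plus strand: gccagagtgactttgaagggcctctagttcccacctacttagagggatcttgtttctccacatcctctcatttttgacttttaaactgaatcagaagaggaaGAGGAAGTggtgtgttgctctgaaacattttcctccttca
Bcl2a1d, chr9:88731915-88732050, minus strand: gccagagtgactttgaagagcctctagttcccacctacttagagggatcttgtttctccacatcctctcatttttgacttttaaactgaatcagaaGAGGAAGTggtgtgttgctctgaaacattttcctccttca
These stretches of 142 and 136 bases were identical at 135 aligned bases and differed at 1, and Bcl2a1b held 6 bases more, next to the motif. On either strand, GAGGAAGT stood in 3.2% of 32851 promoter windows of the same 300 base length and in 3 of the 11 windows of the 8 genes, those of Bcl2a1b, Bcl2a1d and Bak1. TTCNNNGAA, the motif of STAT factors, was in 8.3% of all windows and in 0 of the 11 windows of the 8 genes. A match is a description of the letters only.

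Of 43971 barcodes that passed the quality filters, 39192 carried exactly 1 hashtag. Cells of clusters whose leading genes included several γδ T cell, dendritic cell or B cell markers were set aside. That left 9147 cells of RT + αPD-L1, 8528 of RT, 10226 of αPD-L1 and 8636 of Control mice, from 134 cells (RT mouse 4) to 4407 cells (RT + αPD-L1 mouse 3) per mouse. Median depth was 5557 to 7681 UMIs per cell by mouse. Levels are given in CPM, the UMIs of a gene scaled to a common total of UMIs for every mouse, so that mice of different depth can be compared. The T cell markers Cd3e, Cd3d, Cd3g, Cd8a, Cd8b1 and Trac summed to 5002.9 to 5751.5 CPM in RT + αPD-L1 mice and 5015.2 to 5975.9 CPM in Control mice, none of the 6 was called, and Cd4 averaged at most 0.98 CPM in any treatment. A summed level cannot tell fewer cells of a state from less RNA per cell. Between 135 and 196 cell barcodes were shared by each pair of libraries.

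The family was first compared between cell states, which were described without a test because the clusters were built on the same cells. The pro-survival genes split between states. Bcl2 was highest among the named clusters of the compared cells in naive-like cells (led by Igfbp4, Ccr9 and Klf2), with a median of 127.7 CPM over mice (range 89.7 to 184.5). It was at 33.7 CPM in effector-like cells (Ccl5, S100a6, S100a4) and 29.9 CPM in cycling G2/M-like cells (Birc5, Ccnb2). Bcl2 was among the variable genes that built the clusters. Bcl2a1b ran the other way, at 28.5 CPM in naive-like cells (range 6.4 to 41) and 267.6 CPM in TPEX-like cells (range 188.2 to 420), a progenitor exhausted-like cluster led by Tnfrsf4 and carrying Pdcd1, Lag3 and Cd200. It was also high, at 232.2 CPM, in an unnamed cluster led by Srm, Xcl1 and Tnfrsf9. Bcl2a1d followed the same order at its ends, with 4.5 CPM in naive-like cells and 82.1 CPM in TPEX-like cells, 18.24 times as much. Neither A1 copy was among the genes used for clustering.

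Bcl2l1 was also lowest in naive-like cells, at 4.5 CPM, and reached 18.2 CPM in TPEX-like cells and 19.5 CPM in the cluster led by Srm, Xcl1 and Tnfrsf9. Mcl1, whose protein turns over quickly, varied least among the pro-survival genes. Its median was 334.8 CPM in naive-like, 363.4 CPM in effector-like, 405.7 CPM in interferon-high (Ifit3b, Ifit3, Rsad2), 414 CPM in TPEX-like and 244.5 CPM in cycling cells. Cycling cells held far more RNA, with a median of 16133 UMIs against 5037 in naive-like cells, so per cell the order of Mcl1 differed: 3.91 UMIs in a cycling cell and 1.78 UMIs in a naive-like cell on average. Per cell, Bcl2a1b likewise averaged 2.12 UMIs in cycling and 2.1 UMIs in TPEX-like cells, against 0.154 UMIs in naive-like cells.

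Among the pro-apoptotic genes, Bcl2l11 stood between 32.9 and 45.5 CPM in 6 of the 8 clusters compared, and it was among the variable genes that built them. It was at 21.7 CPM in cycling cells and at 204.3 CPM in an unnamed cluster led by the long noncoding RNAs Gm26917 and Kcnq1ot1. Cells of that cluster had a median of only 1706 UMIs, and Bcl2 (168.9 CPM) and Mcl1 (517.6 CPM) were at their highest among the 8 clusters there too. Per cell, however, Mcl1 averaged 1.065 UMIs and Bcl2 0.304 UMIs there, below the 1.782 and 0.679 UMIs of naive-like cells. Bcl2l11 averaged 0.414 UMIs per cell there and 0.185 UMIs in naive-like cells. The share of this low-UMI cluster was 5.80% to 8.28% of the cells in RT + αPD-L1 mice and 4.71% to 7.41% in Control mice. Bid, which links death receptors to mitochondria, was highest at 33.4 CPM in the cluster led by Srm, Xcl1 and Tnfrsf9, and lay at 11.7 to 19.2 CPM in the other 7. Bak1 varied least of all 8, with 56.6 CPM in cycling, 54.5 CPM in effector-like and 32.2 CPM in naive-like cells.

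**Figure D1:**
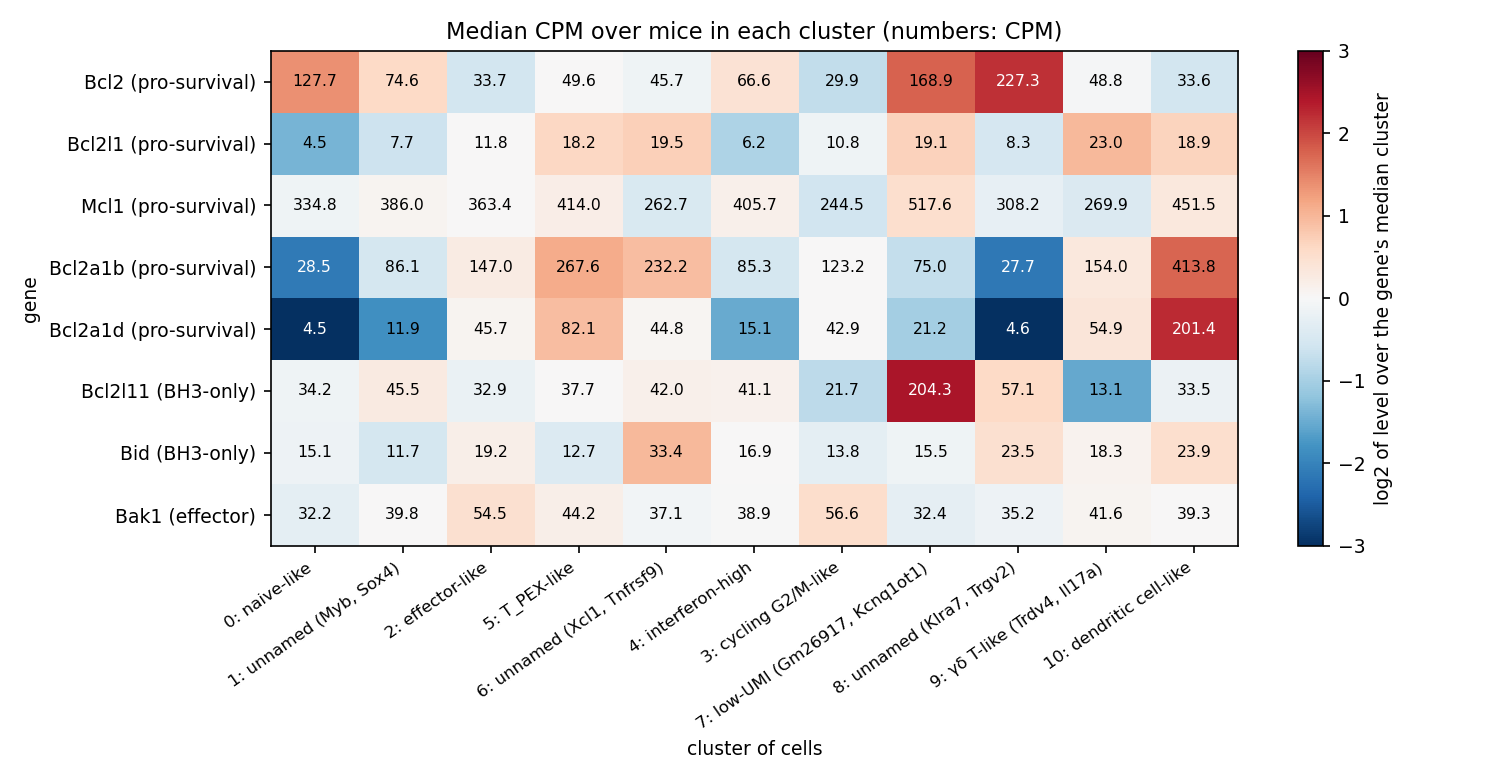
Median CPM over mice of the 8 BCL2 family genes (rows, grouped by role) in 11 clusters of cells (columns), counting mice with 20 or more cells in the cluster. Numbers are CPM and color is the log2 ratio to the median cluster of that gene. Bcl2 is high where the A1 copies are low (naive-like: 127.7 CPM against 28.5 and 4.5 CPM), and Bcl2l11 stands out in the low-UMI cluster (204.3 CPM).

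The cells set aside held the extremes of several genes. A cluster led by Klra7, Klra6 and Trgv2 mixed natural killer receptor and γδ T cell receptor genes (Trdc at 74.3 CPM, Trac at 133.4 CPM, Cd8b1 at 607.4 CPM) and was left unnamed. Bcl2 had a median of 227.3 CPM there, above the median of each of the 8 clusters compared, with Bcl2a1b at 27.7 CPM and Bcl2a1d at 4.6 CPM. In γδ T-like cells led by Trdv4 and Cd163l1 the pattern was turned round, with Bcl2 at 48.8 CPM and Bcl2a1b at 154 CPM, and Bcl2l11 at its lowest, 13.1 CPM. Dendritic cell-like cells carried the most A1 RNA, with Bcl2a1b at 413.8 CPM and Bcl2a1d at 201.4 CPM.

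To ask whether treatment shifted the family, UMIs were summed per mouse and fitted with edgeR's quasi-likelihood test over 11941 genes. Of the 8 genes, 1 was called in RT + αPD-L1 against Control (Mcl1, higher), where 8.48% of all genes tested were called (5.75% higher and 2.73% lower). With 1 of 8 called, the share of the family was near that of all genes. None was called in RT against Control (0 of 8, and 0 at an unadjusted p under 0.05; 0.109% of all genes) or in αPD-L1 against Control (0 of 8, and 0 unadjusted; 0.377% of all genes), and DESeq2 and limma-trend also called 0 in both. Of all 11941 genes, 1123 had an unadjusted p under 0.05 by edgeR in RT and 1655 in αPD-L1. RT + αPD-L1 called 0 of 8 against RT (3.07% of all genes) and 0 of 8 against αPD-L1 (2.31% of all genes). In each of these, Mcl1 and Bcl2l11 had an unadjusted p under 0.05, as had 1840 of 11941 genes against RT and 1500 against αPD-L1. Against RT both other tools called 0, and against αPD-L1 DESeq2 called 1 gene, Mcl1, and limma-trend 0. With only the groups compared in the edgeR fit, 0 of 11449 genes were called against RT and 1 of 11368 against αPD-L1. The 3 comparisons against Control share the same 5 Control mice.

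**Figure D2:**
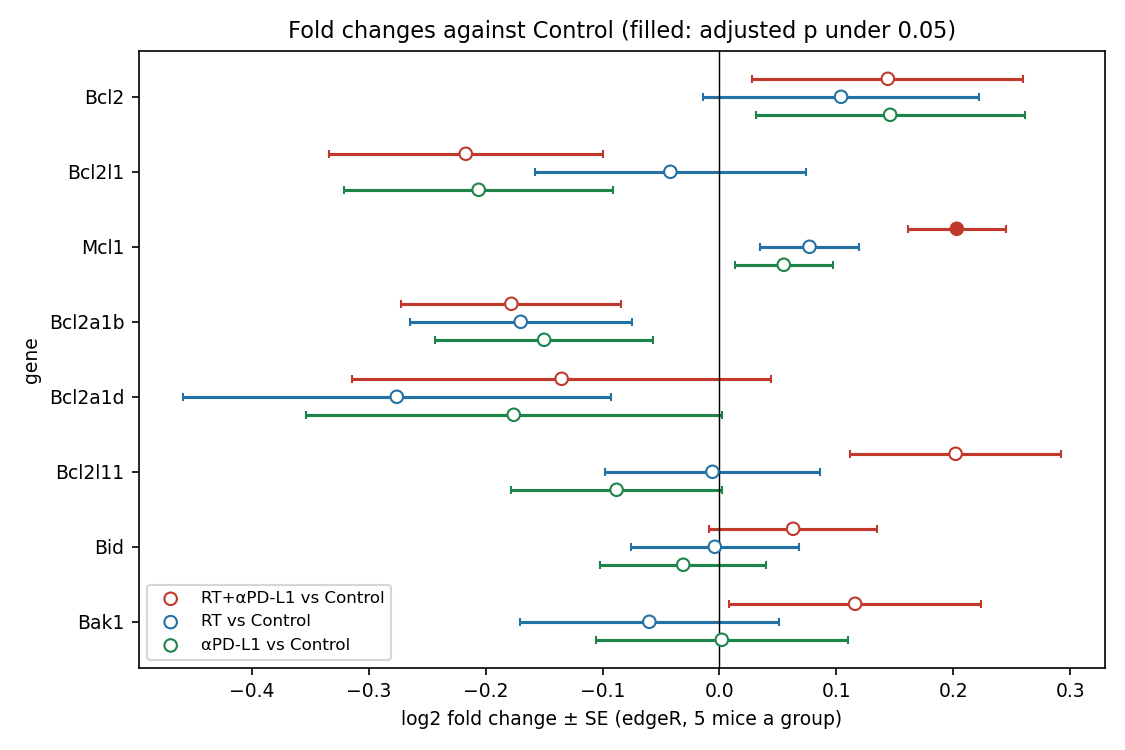
Log2 fold change (x axis) of each gene (rows) in RT + αPD-L1, RT and αPD-L1 against Control, from edgeR with 5 mice a group. Bars are standard errors and a filled point is an adjusted p under 0.05. The only filled point is Mcl1 in RT + αPD-L1, at 0.20.

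Mcl1 was higher after combination treatment. It stood at 374.0, 346.4, 360.0, 359.2 and 392.8 CPM in RT + αPD-L1 mice 1 to 5. It stood at 326.0, 340.3, 332.3, 358.0 and 332.7 CPM in RT mice, at 347.2, 308.8, 344.1, 338.2 and 319.3 CPM in αPD-L1 mice, and at 310.6, 323.5, 325.6, 328.4 and 312.9 CPM in Control mice. All 5 RT + αPD-L1 mice lay above all 5 Control mice, a separation in one direction or the other that 4.87% of all genes showed, and no other member of the 8 showed it. The RT and αPD-L1 mice overlapped both of these groups. The means were 366.5 ± 17.7 CPM in RT + αPD-L1 and 320.2 ± 8 CPM in Control (SD, n = 5 each), a log2 fold change of 0.20 ± 0.04 (SE), or 1.15-fold (edgeR adjusted p = 0.00469). Against αPD-L1 the log2 fold change was 0.15 ± 0.04 (adjusted p = 0.0688), and against RT 0.13 ± 0.04 (adjusted p = 0.122). With 1 mouse left out, the value against αPD-L1 passed in 2 of 20 fits, without αPD-L1 mouse 1 (adjusted p = 0.049) or mouse 3 (adjusted p = 0.0348). Over 11 other settings it ran between 0.049 and 0.168 and passed in 3. In those settings the value against RT ran between 0.024 and 0.15 and passed in 0. RT alone was at 0.08 ± 0.04 (adjusted p = 0.594) and αPD-L1 alone at 0.06 ± 0.04 (adjusted p = 0.61). Of the other genes, the log2 fold changes against RT ran between −0.18 (Bcl2l1) and 0.18 (Bak1) for Bcl2, Bcl2l1, Bcl2a1b, Bcl2a1d, Bid and Bak1, and against αPD-L1 between −0.03 (Bcl2a1b) and 0.11 (Bak1) for the same 6. The departure from additivity, by which the log2 change under both agents exceeded the RT and αPD-L1 changes added up, was 0.07 ± 0.06 for Mcl1 (adjusted p = 0.738). In that comparison 0 of 8 members were called, against 0.963% of all genes, and the values of the same 6 other genes ran between −0.11 (Bcl2) and 0.32 (Bcl2a1d), none at an unadjusted p under 0.05.

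The share of interferon-high cells was also higher in RT + αPD-L1 mice, except in mouse 1. Such cells made up 1.12%, 35.96%, 49.56%, 12.08% and 13.11% of RT + αPD-L1 mice 1 to 5, 1.49% to 4.10% of RT, 0.72% to 3.56% of αPD-L1 and 0.49% to 8.08% of Control mice. All 8 interferon-high markers were called higher in RT + αPD-L1 against Control, and their summed level was 183.4 to 2389.2 CPM in RT + αPD-L1 and 108.7 to 415.5 CPM in Control mice. Of all genes tested, 5.75% were called higher and 2.73% lower in that comparison. In the same comparison 10 of 10 markers of the TSTEM-2-like state were higher, a list that shares Isg15, Ifit3, Rsad2 and Irf7 with the first, as were 2 of 9 naive-like and 2 of 9 effector-like markers, and 3 of 9 TPEX-like markers were lower. Without that cluster Mcl1 stood at 374.5, 327.3, 309.9, 351.9 and 379.4 CPM in RT + αPD-L1 mice 1 to 5, against 307.8 to 327.4 CPM in Control mice. The groups then overlapped, and the log2 fold change of 0.11 ± 0.06 did not pass the test (edgeR adjusted p = 0.268). RT + αPD-L1 mouse 1, whose interferon-high share lay within the Control range, had the second-highest Mcl1 level of all 20 mice with the cluster in. Markers of other cell types were low or overlapped between treatments in the compared cells. Of all 11941 genes, 2729 had an unadjusted p under 0.05 by edgeR in RT + αPD-L1 against Control. Of 6 γδ T cell markers tested 1 was called higher in RT + αPD-L1, Cd163l1 (1 CPM in RT + αPD-L1 and 0.4 CPM in Control), and the list summed to 5.1 to 18.2 CPM in RT + αPD-L1 and 5.8 to 10.6 CPM in Control mice. B cell markers summed to 238.1 to 308.6 CPM in RT + αPD-L1 and 271.1 to 354.8 CPM in Control mice. Dendritic cell markers summed to 102.6 to 125.4 CPM in RT + αPD-L1 and 86.8 to 116.9 CPM in Control mice, mostly Cst3, and 0 of the 7 that could be tested were called (3 at an unadjusted p under 0.05). Monocyte or macrophage markers summed to 17.2 to 29.7 CPM in RT + αPD-L1 and 14 to 30.8 CPM in Control mice, with Adgre1 at 0 in 19 of 20 mice. NK markers summed to 41.7 to 70.2 CPM in RT + αPD-L1 and 44.8 to 58.1 CPM in Control mice, mostly Eomes, with Ncr1 at 0 in 13 mice, and 0 of the 4 tested were called (3 at an unadjusted p under 0.05). The part of these cells in the Mcl1 result was not tested.

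**Figure D3:**
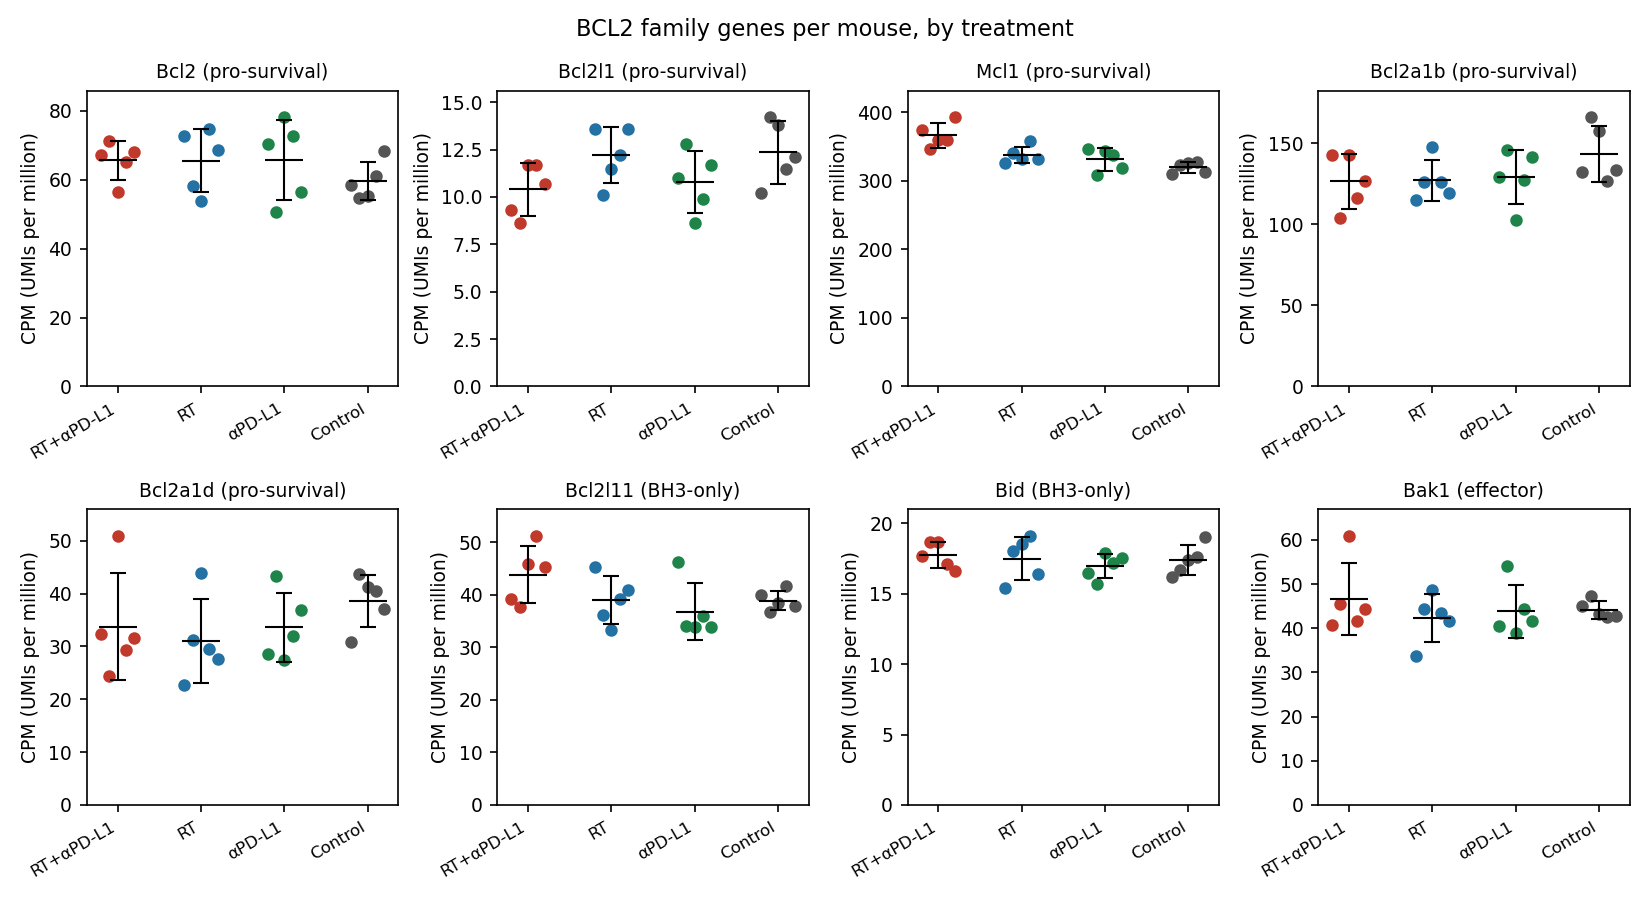
CPM of each of the 8 genes (panels, y axis from 0) in each of 20 mice (points) by treatment. Bars are the mean and SD of 5 mice. Mcl1 is at 346.4 to 392.8 CPM in RT + αPD-L1 and 310.6 to 328.4 CPM in Control mice, and the points of the other genes overlap between treatments.

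Within clusters, the same test was run in the 5 largest of the 7 compared clusters that had enough cells in every treatment. Of 38 pairs of gene and cluster, 1 was called in RT + αPD-L1 against Control, Mcl1 in naive-like cells, where 1.96% of 8822 genes were called. Mcl1 was at 413.6, 369.6, 396.7, 355.4 and 372.7 CPM in naive-like cells of RT + αPD-L1 mice, against 298, 332.9, 319, 327.4 and 317 CPM in those of Control mice, and the groups did not overlap, which held for 2.07% of the 8822 genes in either direction. Its log2 fold change there was 0.24 ± 0.06 (edgeR adjusted p = 0.0153). The call was lost without Control mouse 1 or without RT + αPD-L1 mouse 3 (highest adjusted p = 0.114), and with hashtags assigned by HTODemux (0.24, adjusted p = 0.0564). In the unnamed cluster led by Gm14085, H2-Oa and Myb the value was 0.18 ± 0.05 (adjusted p = 0.0578; 0.742% of genes called). It was 0.16 ± 0.07 in effector-like cells (adjusted p = 0.337; 0.492%), 0.23 ± 0.08 in TPEX-like cells (adjusted p = 0.293; 0.529%) and 0.06 ± 0.06 in cycling cells (adjusted p = 0.923; 2.39%). The sign was the same in all 5 clusters, which come from the same mice. In RT + αPD-L1 against Control, 8 of the 38 pairs had an unadjusted p under 0.05 by edgeR. Beside pairs of Mcl1 these were Bcl2 in naive-like and TPEX-like cells, and Bcl2l11 and Bcl2a1b in the cluster led by Gm14085. How many of all genes reached that unadjusted threshold was not counted within clusters, so these unadjusted counts have no background beside them. Of the 38 pairs, 0 were called in RT against Control by edgeR (4 at an unadjusted p under 0.05; lowest adjusted p = 0.225). Of all genes, 0.612% were called in RT in naive-like cells, 0.172% in the cluster led by Gm14085, 0.0114% in effector-like cells, and 0% in TPEX-like and in cycling cells. In αPD-L1 against Control 0 of the 38 pairs were called (5 unadjusted; lowest adjusted p = 0.333), with 0.397%, 0.376%, 0.0801%, 0.0551% and 0.0613% of all genes called in the same order of clusters. No other tool was run within clusters.

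**Figure D4:**
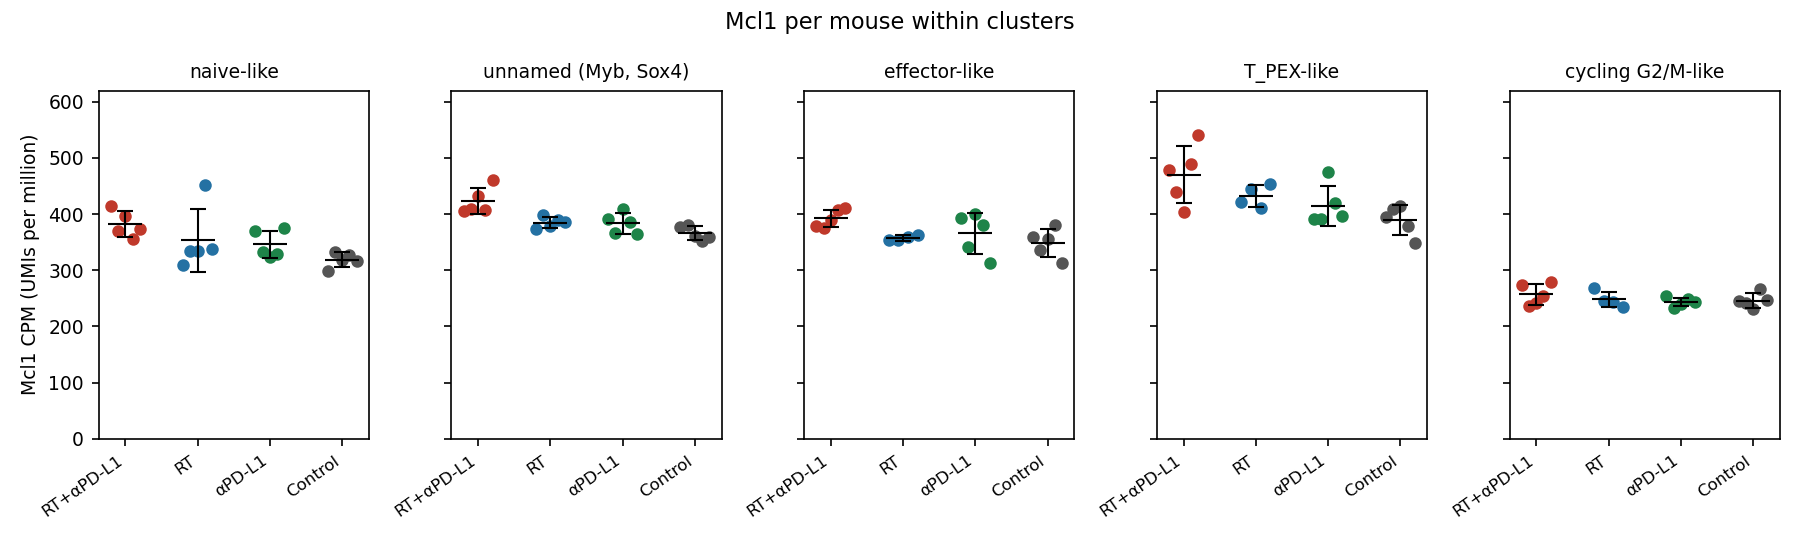
Mcl1 CPM (y axis from 0) per mouse (points) within 5 clusters (panels), by treatment, with mean and SD over mice with 20 or more cells. In naive-like cells the RT + αPD-L1 mice lie at 355.4 to 413.6 CPM and the Control mice at 298 to 332.9 CPM.

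Bcl2 did not pass the test in any treatment. It averaged 65.6 ± 5.6 CPM in RT + αPD-L1, 65.6 ± 9.2 CPM in RT, 65.6 ± 11.6 CPM in αPD-L1 and 59.6 ± 5.5 CPM in Control (SD, n = 5 each). By mouse it was at 67.1, 71.3, 56.5, 65.1 and 68.2 CPM in RT + αPD-L1, and at 58.6, 54.7, 55.4, 61.2 and 68.3 CPM in Control. The groups overlapped, and the log2 fold changes were 0.14 ± 0.12 in RT + αPD-L1, 0.10 ± 0.12 in RT and 0.15 ± 0.12 in αPD-L1 (edgeR adjusted p = 0.503, 0.845 and 0.624). Spread between mice of one treatment was wide, from 50.7 to 78.1 CPM in αPD-L1. In naive-like cells, where Bcl2 was highest, it averaged 150.4 CPM in RT + αPD-L1 and 119.6 CPM in Control, a log2 fold change of 0.25 ± 0.10 that did not pass (adjusted p = 0.267). There it passed in 1 of 20 fits that left out 1 mouse (adjusted p = 0.04) and in 0 of 3 other settings. In TPEX-like cells Bcl2 was at 0.33 ± 0.15 (adjusted p = 0.57). It was at −0.07 in the cluster led by Gm14085, −0.22 in effector-like and −0.20 in cycling cells.

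The A1 copies had lower means in each treatment than in Control, and neither passed. Bcl2a1b was at 142.7, 104.1, 142.7, 116.2 and 126.4 CPM in RT + αPD-L1 mice and at 132.4, 165.8, 157.3, 126.5 and 133.5 CPM in Control mice, which overlapped. Its log2 fold changes were −0.18 ± 0.09 in RT + αPD-L1, −0.17 ± 0.10 in RT and −0.15 ± 0.09 in αPD-L1 (adjusted p = 0.266, 0.595 and 0.512). Bcl2a1d was at −0.14 ± 0.18, −0.28 ± 0.18 and −0.18 ± 0.18 in the same order (adjusted p = 0.726, 0.671 and 0.734), with 24.3 to 50.9 CPM in RT + αPD-L1 and 30.9 to 43.6 CPM in Control mice. Bcl2l1 averaged 10.4 ± 1.4 CPM in RT + αPD-L1 and 12.4 ± 1.7 CPM in Control (log2 fold change −0.22 ± 0.12, adjusted p = 0.277). It was at −0.04 ± 0.12 in RT and −0.21 ± 0.12 in αPD-L1 (adjusted p = 0.985 and 0.445).

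Of the pro-apoptotic genes, Bcl2l11 came nearest to a call, in RT + αPD-L1 against αPD-L1. It stood at 39.2, 37.7, 45.8, 51.2 and 45.3 CPM in RT + αPD-L1 mice, at 46.3, 34.0, 33.8, 35.9 and 33.9 CPM in αPD-L1 mice, and at 39.9, 36.8, 38.4, 41.6 and 37.8 CPM in Control mice. Mouse 1 of αPD-L1 overlapped the RT + αPD-L1 mice, and the other 4 lay below all of them. The log2 fold change was 0.29 ± 0.09 against αPD-L1 (edgeR adjusted p = 0.108), 0.21 ± 0.09 against RT (adjusted p = 0.27) and 0.20 ± 0.09 against Control (adjusted p = 0.176). Without αPD-L1 mouse 1 the value against αPD-L1 was 0.37 ± 0.08 and passed (adjusted p = 0.0137). This was the only 1 of 20 fits leaving out 1 mouse that passed (highest adjusted p = 0.241), and 0 of 11 other settings passed. The departure of Bcl2l11 from additivity was 0.30 ± 0.13 (adjusted p = 0.365), the only unadjusted p under 0.05 among the 8 genes in that comparison, and DESeq2 and limma-trend called 0. Bid held within 16.6 to 18.7 CPM in RT + αPD-L1 and 16.2 to 19.0 CPM in Control mice, with log2 fold changes of 0.06 ± 0.07 in RT + αPD-L1, 0.00 ± 0.07 in RT and −0.03 ± 0.07 in αPD-L1. Bak1 averaged 46.6 ± 8.2 CPM in RT + αPD-L1 and 44.2 ± 2 CPM in Control (0.12 ± 0.11, adjusted p = 0.576; −0.03 without RT + αPD-L1 mouse 3), and its log2 fold change was −0.06 ± 0.11 in RT and 0.00 ± 0.11 in αPD-L1.

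The balance among the members followed was described as a ratio of UMIs, with no test. Other pro-apoptotic genes were left out of it, among them the effector gene Bax. Over all compared cells Bax held 47041 UMIs, against 13719 of Bak1, 11358 of Bcl2l11 and 5055 of Bid. The ratio therefore does not give the balance of pro-survival to pro-apoptotic RNA as a whole. The summed UMIs of Bcl2, Bcl2l1, Mcl1, Bcl2a1b and Bcl2a1d were 5.61 ± 0.57 times those of Bcl2l11, Bid and Bak1 in RT + αPD-L1 mice, 5.81 ± 0.09 times in RT, 5.86 ± 0.31 times in αPD-L1 and 5.71 ± 0.27 times in Control mice (SD, n = 5 each). RT + αPD-L1 mice spanned the widest range, 4.96 to 6.41, which covered the whole range of the Control mice, 5.36 to 5.99. The lowest ratio was that of RT + αPD-L1 mouse 3, which also had the highest Bak1 level (60.9 CPM), the highest Bcl2a1d level (50.9 CPM) and the largest interferon-high share. Without the A1 copies the order of the means turned, with 4.12 ± 0.47 in RT + αPD-L1 and 3.9 ± 0.09 in Control. The ratio of Bcl2 to Bcl2l11 UMIs was 1.52 ± 0.28 in RT + αPD-L1, 1.68 ± 0.13 in RT, 1.8 ± 0.35 in αPD-L1 and 1.54 ± 0.15 in Control.

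Members also varied together across mice. Of 28 pairs, 4 had permutation p-values that passed adjustment over the 28 pairs by both Pearson and Spearman correlation of log2 CPM over the 20 mice, which share 4 libraries. The A1 copies varied together (r = 0.81, rho = 0.88, permutation p = 3e-05 and 1e-05, adjusted 0.0007 and 0.00028; r = 0.81 without the 2 mice farthest from the median), and r was 0.80, 0.98, 0.83 and 0.61 within RT + αPD-L1, RT, αPD-L1 and Control. Bcl2 ran against Bcl2a1b (r = −0.77, rho = −0.79, permutation p = 5e-05, adjusted 0.0007, for both; −0.75 without the 2 farthest mice) and against Bcl2a1d (r = −0.79, rho = −0.80, permutation p = 0.00015 and 0.00012, adjusted 0.00105 and 0.00112; −0.74). Within RT + αPD-L1, RT, αPD-L1 and Control, r between Bcl2 and Bcl2a1b was −0.64, −0.79, −0.87 and −0.73, and r between Bcl2 and Bcl2a1d was −0.95, −0.83, −0.96 and −0.34. Bcl2a1d and Bak1 were also correlated (r = 0.74, rho = 0.60, permutation p = 0.00011 and 0.0059, adjusted 0.00103 and 0.0413), with r at 0.54 without the 2 farthest mice and at 0.80, 0.91, 0.87 and 0.10 within the treatments in the same order. The shares of the cell states also differed between mice, with naive-like cells at 7.42% to 25.08% in RT + αPD-L1, 20.97% to 27.28% in RT, 18.8% to 41.01% in αPD-L1 and 14.16% to 23.01% in Control mice. TPEX-like cells were at 2.61% to 11.83% in RT + αPD-L1, 7.76% to 14.4% in RT, 6.26% to 12.4% in αPD-L1 and 9.53% to 24.27% in Control mice, and the part of these shares in the correlations was not tested.

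**Figure D5:**
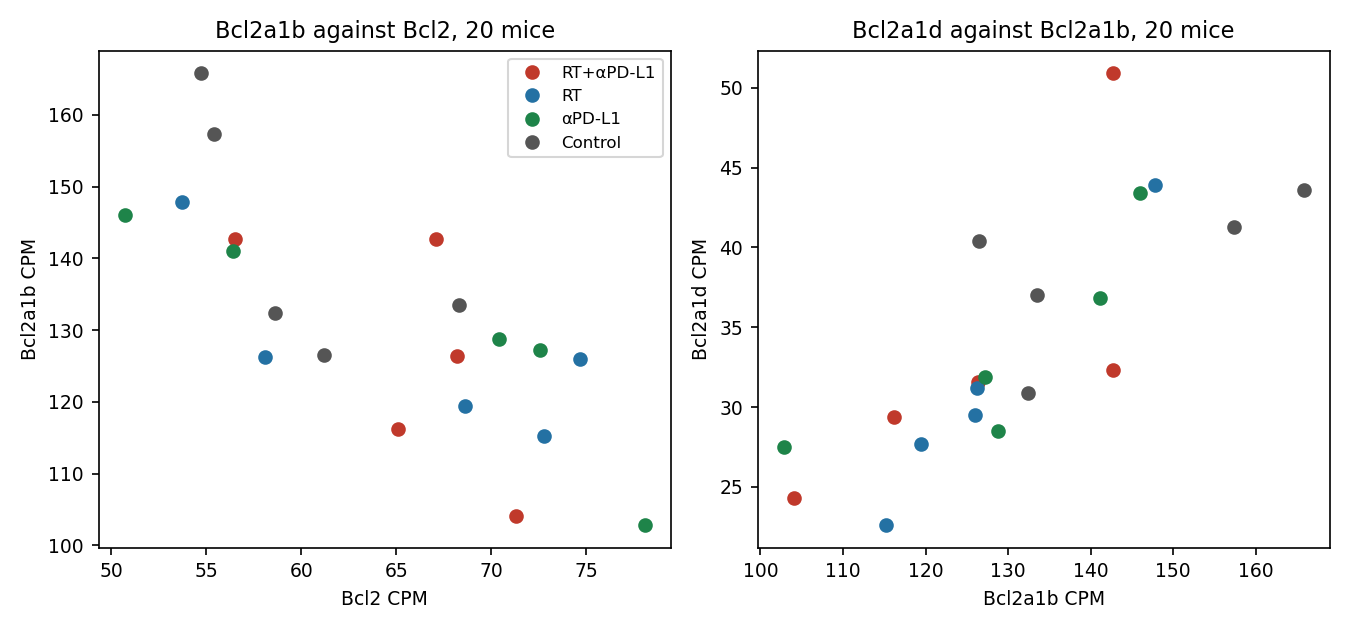
CPM of Bcl2a1b against Bcl2 (left) and of Bcl2a1d against Bcl2a1b (right), 1 point a mouse, colored by treatment. Over 20 mice r of the log2 levels was −0.77 on the left and 0.81 on the right.

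Among 7727 genes with a mean of 10 CPM or more, the pattern over the 20 mice most like that of Bcl2 was found for the ribosomal protein genes Rpl34 (r = 0.842), Rps20 and Rpl11. For Mcl1 it was found for Map11 (r = 0.817), Arid4a, which encodes a chromatin protein, and Peli1, a ubiquitin ligase gene of receptor signaling. Closest to Bcl2a1b were Ap1s1 (r = 0.835), Bhlhe40, a transcription factor gene of activated T cells, and Dera. Closest to Bcl2a1d were Fam129a (r = 0.865), Prelid1 and Pdcd1 (r = 0.828), which encodes PD-1. Bak1 was closest to Acadl (r = 0.89), Gimap4 and Cdkn2d, Bcl2l1 to Lrrc40 (r = 0.855), Ddx19b and Ndufc2, Bcl2l11 to Unc119b (r = 0.684), Zfp281 and Zeb1, and Bid to Slc11a2 (r = 0.683), Slc46a3 and Gm42047. These are descriptions over mice that share libraries and depth.

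Around the 8 genes, other parts of the pathway were counted in RT + αPD-L1 against Control, beside a median log2 fold change of −0.01 over all genes. In that comparison 5.75% of all genes tested were called higher and 2.73% lower. An unadjusted p under 0.05 by edgeR was found for 2729 of 11941 genes. Of the anti-apoptotic list 1 of 6 tested genes rose, Mcl1 itself, and the median was −0.14. Of 7 BH3-only genes tested (Bcl2l11, Bid, Bad, Bbc3, Pmaip1, Bmf and Bik) 0 passed in edgeR, with 1 at an unadjusted p under 0.05, and of the effectors Bax and Bak1 0 passed, with 0 unadjusted. Bok, Hrk and Bcl2l10 had 10, 3 and 0 UMIs in all cells compared and were not tested. Of 9 other relatives of BCL2, 0 passed, with 2 unadjusted. Of 15 genes of the mitochondrial death machinery 1 was lower, the channel gene Vdac1, and of 6 inhibitor of apoptosis genes tested 1 was higher, Xiap, both named after their values were seen. Without the interferon-high cluster 450 of 11713 genes were called, in either direction. Neither Vdac1 nor Xiap passed there, with Vdac1 at −0.08 ± 0.05 (−0.14 ± 0.04 with the cluster) and Xiap at 0.16 ± 0.05 (0.17 ± 0.05 with it; edgeR adjusted p = 0.33 and 0.0941 without).

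Among genes upstream of the family, 4 of 15 death receptor pathway genes rose and 0 fell, against 5.75% and 2.73% of all genes. Tnfsf10, which encodes the death ligand TRAIL, averaged 18.6 CPM in RT + αPD-L1 and 12.9 CPM in Control (log2 fold change 0.60 ± 0.14, edgeR adjusted p = 0.0106). Casp8, the initiator caspase that cleaves BID, averaged 98.6 CPM in RT + αPD-L1 and 76.5 CPM in Control (0.42 ± 0.12, adjusted p = 0.0338), and Ripk1, a kinase of death receptor complexes, rose by 0.34 ± 0.08 (adjusted p = 0.00902). Mlkl, the executor of necroptosis, rose by 1.59 ± 0.40 at low levels (1.5 CPM in RT + αPD-L1 and 0.6 CPM in Control, adjusted p = 0.0171). Without the interferon-high cluster 1 of the 15 rose, Ripk1 (0.23 ± 0.06, adjusted p = 0.0444), and 1 fell, Traf1 (−0.22 ± 0.06, adjusted p = 0.0364), with Tnfsf10 at 0.38 ± 0.12 (adjusted p = 0.0671), Casp8 at 0.17 ± 0.07 (adjusted p = 0.198) and Mlkl at 1.14 ± 0.39 (adjusted p = 0.101).

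Of 21 survival cytokine genes 5 rose and 0 fell in RT + αPD-L1 against Control, beside 5.75% and 2.73% of all genes. Il7r, the interleukin-7 receptor chain upstream of Bcl2, averaged 198.5 CPM in RT + αPD-L1, 148.7 CPM in RT, 170.6 CPM in αPD-L1 and 108.7 CPM in Control. It rose by 0.89 ± 0.15 in RT + αPD-L1 (edgeR adjusted p = 0.00158) and by 0.66 ± 0.15 in αPD-L1 (adjusted p = 0.0475). Socs1, a feedback inhibitor of cytokine signaling, rose by 0.78 ± 0.21 and Stat3 by 0.40 ± 0.11 in RT + αPD-L1 (adjusted p = 0.0247 and 0.0338). Without the interferon-high cluster 1 of the 21 passed, Il7r (0.74 ± 0.17 in RT + αPD-L1, adjusted p = 0.0131), with Socs1 at 0.38 ± 0.14 and Stat3 at 0.28 ± 0.09 (adjusted p = 0.134 and 0.0783), and Il7r in αPD-L1 was as large, at 0.66 ± 0.16, but did not pass (adjusted p = 0.0746).

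Of 12 NF-κB and costimulatory genes 0 rose and 2 fell in RT + αPD-L1, with or without the interferon-high cluster. With the cluster, 5.75% of all genes rose and 2.73% fell. Nfkbia, the feedback inhibitor IκBα, averaged 464.9 CPM in RT + αPD-L1 and 577.9 CPM in Control (−0.31 ± 0.06, edgeR adjusted p = 0.00298), and also fell in αPD-L1 (−0.30 ± 0.06, adjusted p = 0.0219). Rel, the c-Rel subunit known to drive A1 transcription, averaged 93.9 CPM in RT + αPD-L1 and 114.1 CPM in Control (−0.28 ± 0.05, adjusted p = 0.00252). Of 8 p53 genes 2 rose, against 5.75% of all genes. One was Cdkn1a, an inhibitor of the cell cycle, at low levels of 2.1 CPM in RT + αPD-L1 and 1 CPM in Control (1.51 ± 0.45, adjusted p = 0.0394). The other was Trp53inp1, at 54.2 CPM in RT + αPD-L1 and 47.8 CPM in Control (0.2 ± 0.045, edgeR adjusted p = 0.00917). Without the interferon-high cluster 0 of the 8 passed, with Cdkn1a at 1.68 ± 0.48 (adjusted p = 0.0534) and Trp53inp1 at 0.068 ± 0.049 (adjusted p = 0.752).

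Of 9 genes that control the proteins after translation 1 rose and 1 fell in RT + αPD-L1, against 5.75% and 2.73% of all genes. Dynll1, a dynein light chain that binds BIM, averaged 344.3 CPM in RT + αPD-L1, 353.2 CPM in RT, 358.8 CPM in αPD-L1 and 282.1 CPM in Control. It rose in RT + αPD-L1 (0.30 ± 0.06, edgeR adjusted p = 0.00319), in RT (0.32 ± 0.06, adjusted p = 0.0203) and in αPD-L1 (0.35 ± 0.06, adjusted p = 0.00584), all against the same Control mice, and its departure from additivity was −0.37 ± 0.08 (adjusted p = 0.0341), and −0.36 ± 0.08 without the interferon-high cluster (adjusted p = 0.0592). Mapk8, which encodes JNK1, a kinase of BIM, was lower in RT + αPD-L1 (−0.26 ± 0.07, adjusted p = 0.0242), and without the interferon-high cluster it was at −0.22 ± 0.08 and did not pass (adjusted p = 0.0997). Against RT, RT + αPD-L1 was higher in Mlkl (1.72 ± 0.42), Socs1 (0.87 ± 0.22), Tnfsf10 (0.55 ± 0.14) and Dynll2 (0.27 ± 0.07) and lower in Rel (−0.20 ± 0.05). Against αPD-L1 it was higher in Mlkl (1.59 ± 0.40), Tnfsf10 (0.61 ± 0.14) and Il2rg, the common cytokine receptor chain (0.15 ± 0.04, adjusted p = 0.0437). Il2rg was as much higher against RT (0.15 ± 0.04, edgeR adjusted p = 0.0331). Without the interferon-high cluster 0 of the 8 differences other than Il2rg against RT passed (lowest adjusted p = 0.054). Against RT, Dynll2 and Rel were then as large (0.34 ± 0.09 and −0.21 ± 0.06), Mlkl was at 1.28 ± 0.40, Socs1 at 0.47 ± 0.14 and Tnfsf10 at 0.32 ± 0.12. Against αPD-L1, Mlkl was at 1.06 ± 0.38, Tnfsf10 at 0.38 ± 0.12 and Il2rg at 0.02 ± 0.04. With the cluster kept but only the groups compared in the fit, 0 of 11449 genes passed against RT and 1 of 11368 against αPD-L1.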

How the data were processed

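Hashtagged single-cell RNA libraries (5 mice each, a 3′ kit per the labels) were counted by the authors with Cell Ranger against mm10, and raw UMI counts per gene, hashtag and barcode were deposited. The matrix headers name version 6.1.2, which differs from that in the methods of the study. Reads that match several genes alike are not counted by this software, so near-identical copies lose UMIs.

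A barcode was kept if it held 500 to 5000 genes and no more than 40000 UMIs, of which mitochondrial genes took less than 10%. A barcode was given to a mouse where exactly 1 hashtag lay above the emptiest bin of its log10 counts (bins of 0.1). Barcodes with several hashtags (8.23%) were dropped as doublets, and doublets within a mouse remain. HTODemux (Seurat 5.3.0), which the study used, was run as an alternative. Of barcodes called by both, 99.64% went to the same mouse. HTODemux, after a centered log ratio at margin 2, gave far fewer compared cells to some mice. It gave 412 against 2025 to Control mouse 1 and 99 against 799 to RT mouse 1. In other mice the numbers were close, with 600 against 613 in Control mouse 4. Cells were clustered (scanpy 1.11.5, Leiden, 2000 variable genes, 20 components, 15 neighbors, resolution 0.6), and a cluster was named where at least 3 markers were among its 50 leading genes and 1 among the first 10. One cluster that met this rule for γδ T cells but was led mostly by natural killer receptor genes was left unnamed and stayed out of the cells compared. Rebuilt names may differ from those of the study.

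UMI counts were summed per mouse and tested with edgeR 4.0.16 (quasi-likelihood, TMM, filterByExpr, treatment as the only term, 20 mice) with Benjamini-Hochberg adjustment over 11941 genes, called at 0.05. DESeq2 1.42.0 and limma-trend 3.58.1, no filter, other size factors, other sets of cells and leaving out each mouse were alternatives. The procedure was tested on simulated data. Correlations used log2(CPM + 1) and 100000 permutations, two-sided. The hashtag numbers name mice and pair nothing. Promoter windows (250 bases before to 50 after the start; 8 of 8 genes matched, 11 windows) came from RefSeq, GRCm38.p6. The members and gene lists were chosen with earlier results of these data known. All 8 members are named. Of the lists, the 12 called genes with the largest change in RT + αPD-L1 against Control are named, and up to 5 in each other comparison. Il2rg against RT and Trp53inp1 against Control are named beside these.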

Additional observations from a re-analysis of the deposited data

Results flagged for a closer look

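Each of the 8 genes, and the ratio of UMIs of their pro-survival to pro-apoptotic members, were checked for a single mouse standing apart. The check was made in each group of 5 mice, by the gap to the nearest neighbor over the whole range of the group. Of 36 groups 2 passed the limit of 0.71. Chance gives about 1 in 20, so this number is close to what chance gives. Bcl2l11 was at 46.3 CPM in αPD-L1 mouse 1, and the other 4 αPD-L1 mice were at 33.8 to 35.9 CPM. Bak1 was at 60.9 CPM in RT + αPD-L1 mouse 3, and the other 4 RT + αPD-L1 mice were at 40.7 to 45.5 CPM.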

How the results depend on the processing

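Precision is limited by 5 mice a group, by 1 library a treatment and by the depth of single mice, from 134 cells upward. P-values measure the spread between mice within a library. No paired analysis was possible because the hashtag number names a mouse within 1 library and the labels pair no mice across libraries. The set of cells without the low-UMI cluster was chosen after seeing the data. The Mcl1 call in RT + αPD-L1 against Control held in 20 of 20 fits that left out 1 mouse (0.188 to 0.215, adjusted p = 0.00263 to 0.0179) and in 10 of 11 other settings. Without the interferon-high cluster 0 of the 8 genes passed, and the Mcl1 departure from additivity was −0.039. RT + αPD-L1 against αPD-L1 gave 1 call, Mcl1, with all assigned cells, with DESeq2 and without cycling clusters, and 0 to 2 calls with 1 mouse left out. Within clusters there were 2 calls with the 8 genes and their relatives kept out of the clustering, Mcl1 in naive-like cells and in the cluster led by Gm14085 (adjusted p = 0.0214), and 0 to 2 with 1 mouse left out. With HTODemux at margin 2 the call lay in the cluster led by Gm14085 (log2 fold change 0.24) in place of naive-like cells. The number of all genes called in RT + αPD-L1 against Control was 1013, and it was 413 and 235 with HTODemux after a centered log ratio at margin 2 and at margin 1 (30671 and 25933 barcodes assigned), 450 without the interferon-high cluster, 419 with limma-trend and 485 with only the groups compared. In that last setting the number fell from 366 to 0 against RT and from 276 to 1 against αPD-L1.

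The ratio of pro-survival to pro-apoptotic UMIs covers only the members followed, and Bax is not among them. Without the A1 copies it averaged 4.12 in RT + αPD-L1, 4.21 in RT, 4.2 in αPD-L1 and 3.9 in Control. With the A1 copies and all assigned cells it was 5.94 in RT. Over the other settings, 324 values of single genes kept their sign and their side of the threshold, 5 newly passed, 2 no longer passed and 15 changed sign, none of which passed in any setting. Bak1 in αPD-L1 was at −0.001 with all assigned cells, −0.002 with DESeq2, −0.01 with HTODemux at margin 1, −0.017 with limma-trend, −0.02 without cycling clusters, −0.007 without the interferon-high cluster and 0 without the low-UMI cluster. Bcl2l1 in RT was at 0.037 with all assigned cells. Bcl2l11 in RT was at 0 with limma-trend, 0.008 without the interferon-high cluster and 0.006 without the low-UMI cluster. Bid in RT was at 0.016 with all assigned cells, 0.005 with HTODemux at margin 1 and 0.011 with limma-trend. With 1 mouse left out, Bak1 ran between −0.03 and 0.168 in RT + αPD-L1, −0.121 and 0.009 in RT, and −0.093 and 0.037 in αPD-L1. Bcl2l1 in RT ran between −0.112 and 0.035, Bcl2l11 in RT between −0.066 and 0.064, and Bid between −0.033 and 0.042 in RT and between −0.071 and 0.014 in αPD-L1.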
